A study of Mus musculus with 66 samples.

Results

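The genes described here encode the general and regulatory proteins of pre-mRNA splicing: the SR proteins (Srsf), the hnRNP proteins (Hnrnp), the SF3 proteins of the U2 snRNP (Sf3), the snRNP core and specific proteins (Snrp), and the PRP-type spliceosome factors (Prpf). They were chosen by symbol, as the genes whose symbol starts with Srsf, Hnrnp, Sf3, Snrp or Prpf and whose deposited log2 value was above 1 in at least 4 of the 66 libraries. Of 62 such symbols 60 met the filter, among 11264 genes that met it in all: 10 Srsf, 18 Hnrnp, 8 Sf3, 11 Snrp and 13 Prpf genes. Of these, 57 were above 1 in all 66 libraries, and Hnrnpa1 and Prpf40b were above it in 25 and 37. The symbols that did not meet it were Srsf12, whose highest value was -0.652, and Snrpn, at -4.833 in its highest library. The genes were picked by symbol and by the filter. Earlier results of these data were known when that choice was made, so it was not blind to them.

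Splicing removes introns in a cycle of ribonucleoprotein particles. U1 and U2 snRNPs, each built on a ring of Sm proteins (Snrpb, Snrpd1, Snrpd2, Snrpd3, Snrpe, Snrpf and Snrpg), recognise the intron ends, the tri-snRNP then joins, and the complex built on Prpf19 holds the active spliceosome together. SR proteins mostly promote the use of an exon by binding enhancers within it, whereas hnRNP proteins often repress it. In lymphocytes these regulators are known for the switch between long and short forms of the surface phosphatase CD45 and for the choice between membrane and secreted immunoglobulin.

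RNA was measured by sequencing of bead-purified germinal centre (GC) B cells and naive B cells from the spleens of MEG mice, BALB/c animals with an IgM B1-8 BCR transgene, a fixed antigen receptor heavy chain. Every group carries that transgene. GC B cells are those that mutate their antigen receptor in the follicle, and naive B cells have not yet met antigen. The libraries, made with the low-input SMART-Seq v4 kit, form sets A and B, whose most frequent value is -5.094 in set A and -4.833 in set B, and they are compared only within a set. Set B (32 libraries, 2 per group) holds cells cultured for 4 h or 2 h with anti-IgM plus anti-CD40, with anti-CD40, with anti-IgM, or with no stimulus. Set A (34 libraries, 2 or 3 per group) holds cells cultured for 4 h or 2 h with IL-21 plus anti-CD40, with IL-21, or with anti-CD40, and has no unstimulated cells. Anti-IgM crosslinks the B cell receptor, anti-CD40 stands in for T cell help, and IL-21 is a cytokine of follicular helper T cells. Whether the libraries of a group came from separate mice is not in the labels. A p-value here reflects the spread among these libraries alone, and that spread may be technical.

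All values are deposited log2 values and all differences are on that log2 scale. They are not divided by transcript length, so levels of different genes are not compared. The labels stood against their markers as follows. Between unstimulated GC and naive B cells of set B, 11 of 11 GC markers were higher and 8 of 8 naive markers lower in GC B cells. Markers of other cells also moved: 5 of 8 myeloid and 3 of 3 erythroid markers were lower in GC B cells, and 3 of 5 T cell markers were lower and 1 was higher. The summed linear level of the erythroid markers ran from 25.11 to 134.58 in GC libraries and from 165.82 to 661.61 in naive libraries of set B, but from 584.32 to 1618.31 in GC and 109.69 to 487.2 in naive libraries of set A. Their part in the results on splicing genes was not tested. In set B, libraries that share a replicate number deviated together within each cell type. In GC cells 56 of 56 pairs had a correlation above 0.1, with a median of 0.63. In naive cells 56 of 56 did, with a median of 0.64. Most counts of set B are therefore also given from a fit with the number as a block. For single genes an adjusted p is from the fit without the block unless the block is named, and the block often gave a smaller one. The fits that left out 1 library had no block, and which calls are lost with it was not computed. Fewer cells of a kind and less RNA per cell cannot be told apart in such bulk samples.

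The first question was how each stimulus acted on these genes within each cell type. Anti-IgM plus anti-CD40 raised Srsf6, an SR protein that binds exonic enhancers, and Snrpa, the U1-A protein of the U1 snRNP, in both cell types. In GC B cells 6 of the 60 genes rose and 2 fell, where 13.9% of all genes tested rose and 12.4% fell. In naive B cells 23 rose and 2 fell, where 20.7% of all genes rose and 21.6% fell. The median difference of the 60 genes was 0.06 in GC cells and 0.31 in naive cells, beside -0.06 and 0.00 for all genes tested. With the replicate number as a block the counts were 11 rises and 6 falls in GC B cells (background 23.3% and 24.8%) and 33 rises and 8 falls in naive B cells (31.9% and 31.2%). The 8 GC calls dropped to 4 without number 2 of both stimuli at 2 h or number 1 without stimulus at 2 h.

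Either stimulus alone also gave more calls in naive than in GC B cells. Anti-CD40 raised 1 of the 60 genes and lowered none in GC B cells (background 7.49% up and 6.45% down), and raised 16 and lowered 1 in naive B cells (13.9% and 14.8%). The GC call was Srsf6, and at an unadjusted p under 0.05 in limma 2 genes were higher and 0 lower. With the block, anti-CD40 gave 7 rises and 4 falls in GC B cells (17.2% and 18%) and 33 rises and 3 falls in naive B cells (27.1% and 25.6%). Anti-IgM raised none and lowered 1 in GC B cells (5.81% and 3.23%), and raised 12 and lowered 4 in naive B cells (15.3% and 15.2%), and at an unadjusted p under 0.05 the limma counts in GC B cells were 1 higher and 2 lower. With the block, anti-IgM gave 1 rise and 3 falls in GC B cells (12.7% and 10.8%) and 26 rises and 10 falls in naive B cells (27.8% and 26.2%). In GC B cells the share of these genes that rose (1.67% for anti-CD40, 0% for anti-IgM and 10% for both) was below the background for each stimulus. In naive cells it was 26.7% for anti-CD40, 20% for anti-IgM and 38.3% for both, above the background each time.

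**Figure D1:**
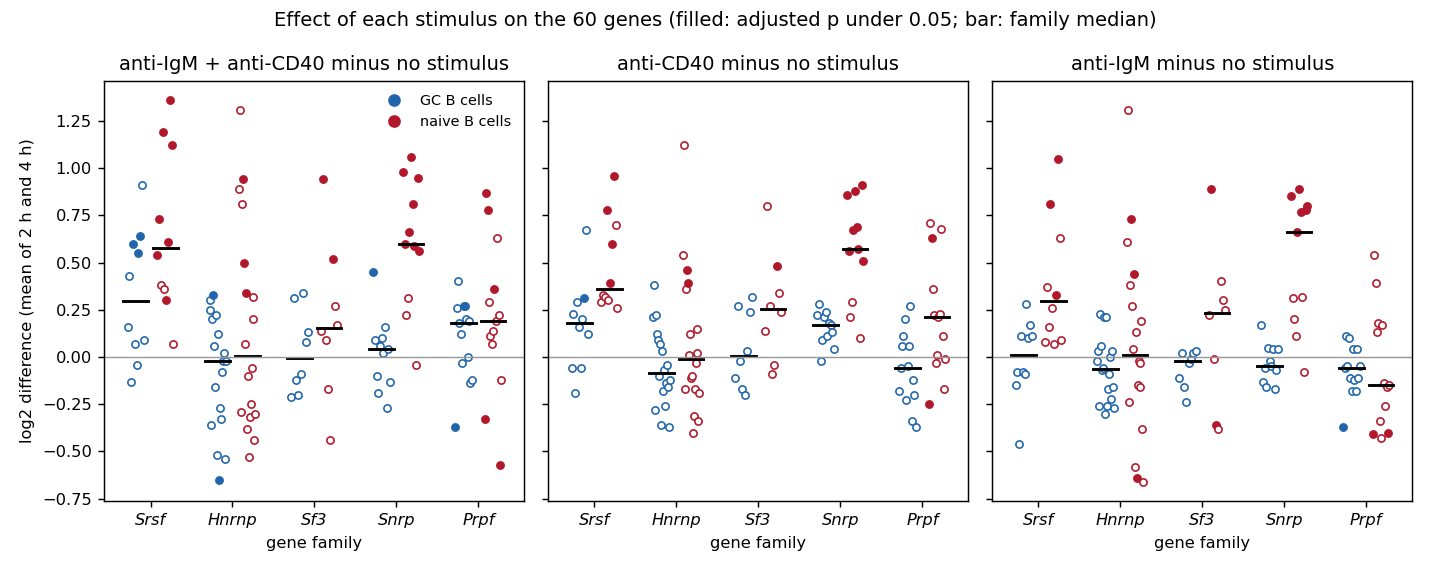
Log2 difference from no stimulus (y axis, mean of the 4 h and 2 h differences) of each of the 60 genes in set B, by gene family (x axis), for GC B cells (blue, left of each pair) and naive B cells (red); filled points passed an adjusted p of 0.05 and bars are family medians. The naive Snrp and Srsf medians lie above 0 for all 3 stimuli, at 0.60, 0.57 and 0.66 for Snrp, while GC family medians stay between -0.08 and 0.30.

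Of 11 Snrp genes, 1 rose in GC cells and 8 rose in naive cells with anti-IgM plus anti-CD40, where 13.9% of all genes rose in GC and 20.7% in naive cells. With anti-CD40 alone 0 rose in GC and 8 in naive cells (background 7.49% and 13.9%), and with anti-IgM 0 rose in GC and 6 in naive cells (5.81% and 15.3%). At 2 h alone, however, 1 Snrp gene rose in naive cells with both stimuli and 0 with either alone (2 with anti-CD40 and 3 with anti-IgM at limma's unadjusted p under 0.05, and 3 and 3 with the block). The block at 2 h also gave 1 fall with anti-IgM, and 2 rises and 1 fall with both stimuli. No share of all genes was computed for these block counts. As a mean over both times none fell under any of the 3 stimuli in either cell type, where limma's unadjusted p under 0.05 also gave 0 falls. The family median in naive B cells was 0.60 for both stimuli, 0.57 for anti-CD40 and 0.66 for anti-IgM. In GC B cells it was 0.04 for both, 0.17 for anti-CD40 and -0.05 for anti-IgM. The genes that rose in naive cells with both stimuli, as a mean over both times, were Snrpa, Snrpc (another U1 protein), Snrpa1 (the U2-A′ protein) and the Sm ring genes Snrpd1, Snrpd2, Snrpd3, Snrpf and Snrpg. At 2 h alone Snrpd3 stood at -0.03 (limma adjusted p = 0.949), and the Snrpa1 call was lost without number 1 of both stimuli at 2 h (0.0548).

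Snrpd1, which encodes the Sm D1 protein of the ring, shows the pattern by library. With anti-IgM plus anti-CD40 it stood at 7.44 and 7.39 at 4 h and 7.29 and 7.53 at 2 h in the GC libraries, against 7.33 and 7.33 at 4 h and 7.25 and 7.34 at 2 h without stimulus. Naive libraries stood at 7.97 and 7.84 at 4 h and 8.04 and 7.51 at 2 h with both stimuli, against 6.23 and 6.002 at 4 h and 7.74 and 7.14 at 2 h without stimulus. In both cell types the libraries with both stimuli lay above those without at 4 h and overlapped with them at 2 h, and the gap at 4 h was wider in naive cells. Taken within each number, which pairs these libraries, the one with both stimuli was the higher at 2 h too, read here without a test. The naive difference was 1.06 ± 0.16 (SE; limma adjusted p = 2.49e-05) for both stimuli, 0.88 ± 0.16 (0.000341) for anti-CD40 and 0.89 ± 0.16 (0.000272) for anti-IgM.

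For Snrpa, both stimuli gave 7.22 and 7.36 at 4 h and 6.95 and 7.13 at 2 h in the GC libraries, against 6.70 and 6.37 at 4 h and 6.90 and 6.89 at 2 h without stimulus. Naive libraries had 7.14 and 7.09 at 4 h and 7.01 and 6.89 at 2 h with both stimuli, against 5.99 and 5.63 at 4 h and 6.30 and 6.29 at 2 h without. Stimulated and unstimulated libraries did not overlap in either cell type. The difference was 0.45 ± 0.10 in GC B cells (limma adjusted p = 0.00169) and 0.98 ± 0.10 in naive B cells (1.46e-07). Anti-IgM alone raised Snrpa by 0.85 ± 0.10 in naive B cells (limma adjusted p = 2e-06), where anti-CD40 gave 0.86 ± 0.10 (1.83e-06). The exons of Snrpa overlap those of a neighbouring gene, BC024978, so reads of the pair may be mixed.

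**Figure D2:**
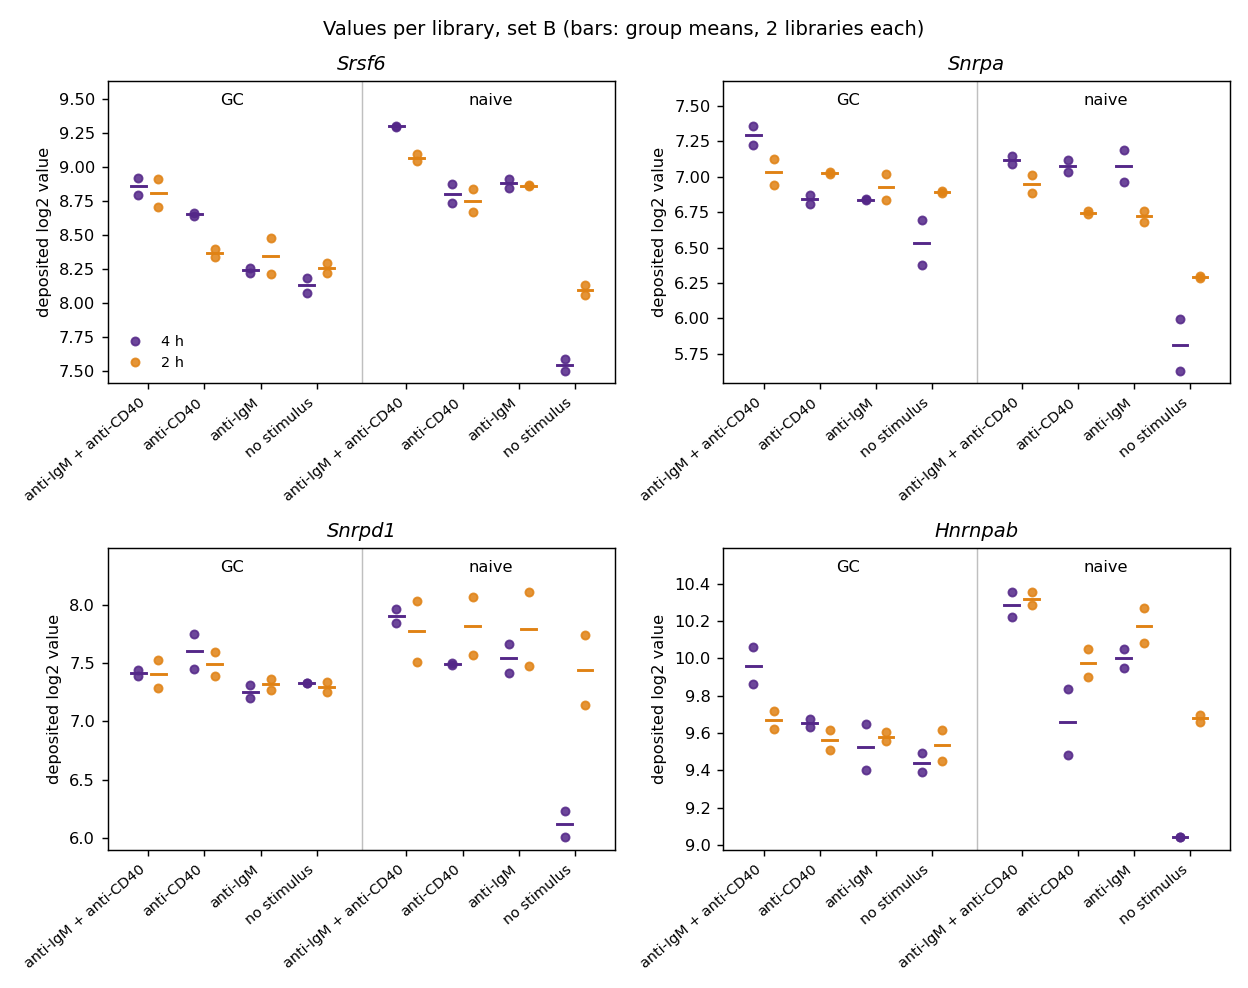
Deposited log2 values (y axis) of Srsf6, Snrpa, Snrpd1 and Hnrnpab in every library of set B, by stimulus (x axis) and cell type (GC left, naive right), at 4 h (purple) and 2 h (orange); bars are means of 2 libraries. The lowest points of Snrpd1 are the unstimulated naive libraries at 4 h, at 6.23 and 6.002, and those of Hnrnpab are the same libraries, both at 9.04.

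Among the SR proteins, Srsf6 moved under each stimulus. With both stimuli it stood at 8.92 and 8.79 at 4 h and 8.71 and 8.91 at 2 h in the GC libraries, against 8.19 and 8.08 at 4 h and 8.30 and 8.22 at 2 h without stimulus. In naive B cells it stood at 9.29 and 9.30 at 4 h and 9.04 and 9.09 at 2 h with both stimuli, against 7.50 and 7.59 at 4 h and 8.06 and 8.13 at 2 h without. No stimulated library overlapped an unstimulated one of its cell type. The difference was 0.64 ± 0.09 in GC cells (limma adjusted p = 1.12e-05) and 1.36 ± 0.09 in naive cells (3.03e-10), the second a 2.57-fold rise. Anti-CD40 alone raised Srsf6 by 0.31 ± 0.09 in GC cells (0.0169) and 0.96 ± 0.09 in naive cells (7.7e-08), and anti-IgM alone raised it by 1.05 ± 0.09 in naive B cells (2.77e-08), where GC B cells gave 0.10 ± 0.09 (0.703). The GC call for anti-CD40 was lost, leaving 0 of the 60 genes called, without any 1 of 4 libraries: number 1 of anti-CD40 at 4 h or at 2 h, and number 2 without stimulus at 4 h or at 2 h.

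Other SR genes moved in fewer comparisons. Of the 10 Srsf genes 3 rose in GC cells and 7 in naive cells with both stimuli (background 13.9% and 20.7%). Anti-CD40 raised 1 and 4 (7.49% and 13.9%), and anti-IgM raised 0 and 3 (5.81% and 15.3%). None fell, where 3.23% to 21.6% of all genes did. Srsf2, which binds enhancers and keeps its own level in check by splicing, stood at 10.46 and 10.08 at 4 h and 10.24 and 9.81 at 2 h in naive B cells with both stimuli, against 8.73 and 8.26 at 4 h and 9.59 and 9.24 at 2 h without. These naive libraries did not overlap, and Srsf2 rose there by 1.19 ± 0.20 (limma adjusted p = 7.4e-05), beside 0.60 ± 0.20 in GC B cells (0.0289). In fits without the block, the GC call of Srsf2 was lost without number 2 of both stimuli at 4 h (limma adjusted p = 0.0869) or at 2 h (0.135), or number 1 without stimulus at 4 h (0.105) or at 2 h (0.12). With the block and all libraries its limma adjusted p in GC B cells was 1.03e-07. Srsf5 rose by 0.55 ± 0.12 in GC cells and 0.61 ± 0.12 in naive cells with both stimuli. In naive B cells Srsf7 rose by 1.12 and Srsf1, the founding SR protein, by 0.54 with both stimuli. The naive Srsf7 call was lost without number 1 of both stimuli at 4 h (limma adjusted p = 0.126) or at 2 h (0.141), or number 2 without stimulus at 4 h (0.124) or at 2 h (0.11). Naive Srsf1 gave 1.19 ± 0.21 at 4 h alone (limma adjusted p = 0.000164) but -0.10 ± 0.21 at 2 h alone (0.819). In GC B cells Srsf7 gave 0.91 ± 0.41 (limma adjusted p = 0.121, and 5.8e-08 with the block) and Srsf1 0.16 ± 0.15 (0.512).

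The hnRNP family medians for both stimuli, -0.02 in GC cells and 0.00 in naive cells, were close to the medians of all genes tested. Of 18 Hnrnp genes, 1 rose and 1 fell in GC cells with both stimuli, where 13.9% of all genes rose and 12.4% fell. In naive cells 3 rose and none fell, where 20.7% of all genes rose and 21.6% fell. Hnrnpab, which binds RNA and single-stranded DNA, stood at 9.86 and 10.06 at 4 h and 9.62 and 9.72 at 2 h in GC libraries with both stimuli, against 9.39 and 9.49 at 4 h and 9.45 and 9.62 at 2 h without. In naive B cells it stood at 10.35 and 10.22 at 4 h and 10.35 and 10.28 at 2 h with both stimuli, against 9.04 and 9.04 at 4 h and 9.70 and 9.66 at 2 h without. The naive groups were apart, whereas the GC groups were apart at 4 h and met at 9.62 at 2 h. Within each number the GC library with both stimuli was the higher at 2 h, read here without a test. The differences were 0.33 ± 0.10 in GC cells (limma adjusted p = 0.0198) and 0.94 ± 0.10 in naive cells (3.23e-07). In fits without the block, the GC call of Hnrnpab was lost without number 2 of both stimuli at 4 h (0.0891) or at 2 h (0.0723), or number 1 without stimulus at 4 h (0.0618) or at 2 h (0.0814). With the block and all libraries its limma adjusted p in GC B cells was 0.000517. Hnrnph3, a member of the group that binds runs of G, fell by 0.65 ± 0.21 in GC B cells with both stimuli and by 0.64 ± 0.21 in naive B cells with anti-IgM. Its GC call was lost without number 1 of both stimuli at 4 h (limma adjusted p = 0.132), number 2 of both at 2 h (0.122), number 2 without stimulus at 4 h (0.199), or either number without stimulus at 2 h (0.0818 and 0.0542), and its naive call was lost without any 1 of 5 libraries, with an adjusted p of 0.0622 to 0.0951.

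The SF3 genes and the PRP-type factors gave few calls. With both stimuli 13.9% of all genes rose and 12.4% fell in GC cells, and 20.7% rose and 21.6% fell in naive cells. Of 8 Sf3 genes, none moved in GC and 2 rose in naive B cells with both stimuli: Sf3a2, a subunit of SF3a, by 0.94, and Sf3b3, a subunit of SF3b, by 0.52. Either call was lost without number 2 of both stimuli at 2 h (limma adjusted p = 0.139 for Sf3a2 and 0.108 for Sf3b3), or number 1 without stimulus at 4 h (0.0673 and 0.06) or at 2 h (0.103 and 0.0812), and that of Sf3a2 also without number 2 of both at 4 h (0.0761). Sf3b1, the SF3b subunit that contacts the branch site, fell by 0.36 ± 0.12 in naive B cells with anti-IgM (limma adjusted p = 0.0348, and 0.00218 with the block). In fits without the block, that call was lost without number 1 of anti-IgM at 4 h (0.139), either number of it at 2 h (0.068 and 0.0725), either number without stimulus at 4 h (0.0617 and 0.0933), or number 1 without stimulus at 2 h (0.149). Of 13 Prpf genes, 1 rose and 1 fell in GC cells and 3 rose and 2 fell in naive cells with both stimuli. Prpf18, which acts in the second step of splicing, was the only gene of the 60 called in GC B cells with anti-IgM. It stood at 6.38 and 6.16 at 4 h and 6.51 and 6.42 at 2 h with anti-IgM, against 6.69 and 6.70 at 4 h and 6.75 and 6.82 at 2 h without stimulus, and these GC libraries did not overlap. Prpf18 fell by 0.37 ± 0.09 there (limma adjusted p = 0.00989) and by 0.41 ± 0.09 in naive B cells (0.00147). Its GC call was lost, leaving 0 genes called, without number 2 of anti-IgM at 4 h or at 2 h. Prpf3 and Prpf4, which belong to the U4/U6 snRNP, rose by 0.78 and 0.36 in naive B cells with both stimuli, and Prpf6, which bridges the tri-snRNP, fell by 0.57.

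The second question was whether the effect of a stimulus differed between GC and naive B cells. The difference of effects was tested directly in the same fit. Of the 60 genes, 8 had a lower effect in GC than in naive B cells for both stimuli together, 2 for anti-CD40 and 8 for anti-IgM, and none had a higher one (12, 12 and 9 lower and 1, 0 and 0 higher at limma's unadjusted p under 0.05). Among all genes tested 4.84%, 1.46% and 3.82% had a lower effect and 7.08%, 2.65% and 5.03% a higher one, in the same order of stimuli. With the block the lower calls were 18 with 1 higher for both stimuli (background 15.5% and 17.5%), 15 with 0 higher for anti-CD40 (8.9% and 10.7%) and 19 with 0 higher for anti-IgM (14.9% and 14.7%). The median difference of effects was -0.23, -0.21 and -0.18, beside -0.02, -0.03 and -0.01 for all genes tested. These 3 tests share the unstimulated libraries, so they are not independent of each other.

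The genes called for the difference with both stimuli were Srsf6, Hnrnpab, Snrpd1, Snrpa, Snrpf, Snrpg, Snrpd2 and Snrpc, and for anti-IgM the list held the same 8 symbols. For Srsf6 the effect of both stimuli was lower in GC by -0.72 ± 0.12 (limma adjusted p = 0.00044) and that of anti-IgM by -0.95 ± 0.12 (5.12e-05). For Snrpd1 the values were -0.96 ± 0.23 (0.00763) and -0.91 ± 0.23 (0.0145). Srsf6 and Snrpa were the genes called for anti-CD40, each at -0.64. Srsf6, Snrpa, Hnrnpab and Snrpd1 kept every such call in all 32 fits that left out 1 library. The calls of Snrpc, Snrpd2, Snrpf and Snrpg were lost without any 1 of between 4 and 16 libraries, with an adjusted p of 0.0501 to 0.129. The count for both stimuli was 4 or 5 without number 2 of GC cells with both at 4 h or 2 h, either number of naive cells with both at 2 h, number 1 of unstimulated GC cells at 4 h or 2 h, or number 2 of unstimulated naive cells at 4 h or 2 h. For anti-IgM it was 4 or 5 without the same unstimulated libraries, number 2 of GC cells with anti-IgM at 4 h, either number of them at 2 h, or number 1 of naive cells with anti-IgM at 4 h or 2 h.

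Time in culture moved with these differences. In unstimulated naive B cells of set B all 11 Snrp genes had a lower mean at 4 h than at 2 h, with a median difference of -0.64, and 9 of 10 Srsf genes did, with a median of -0.50. Over the 60 genes 43 were lower and the median was -0.30, beside -0.02 for all genes tested. In unstimulated GC B cells 22 of the 60 were lower at 4 h, 2 of the Snrp genes among them, and the median was 0.05. The fall in naive cells without stimulus was -1.33 for Snrpd1, -1.18 for Snrpf, -0.92 for Srsf2, -0.64 for Hnrnpab, -0.55 for Srsf6 and -0.48 for Snrpa, given here as differences of 2-library means with no test. Naive cells with both stimuli had a median of 0.22 for the same difference, and 17 of the 60 genes were lower at 4 h.

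The stimulus counts were therefore also read at each time alone, a choice made after these values were seen. At 4 h alone both stimuli raised 22 and lowered 1 of the 60 genes in naive B cells (background 19.1% and 19.1%), and at 2 h alone they raised 5 and lowered 1 (9.41% and 10.9%). Anti-CD40 in naive B cells raised 16 at 4 h (13% of all genes rose and 12.7% fell) and 2 at 2 h (3.49% and 4.57%), and anti-IgM raised 15 and lowered 2 at 4 h (14% and 13.1%) and raised 2 and lowered 1 at 2 h (5.46% and 5.66%). Of the Snrp genes 9 rose at 4 h and 1 at 2 h with both stimuli. With the block, 41 rose and 7 fell at 4 h and 12 rose and 6 fell at 2 h with both stimuli in naive B cells. No share of all genes was computed for the block at 1 time alone. The block counts in this paragraph therefore have no background, and the shares given belong to the fit without the block. With anti-CD40 the block gave 35 rises and 3 falls at 4 h and 10 and 1 at 2 h, and with anti-IgM 31 and 6 at 4 h and 10 and 6 at 2 h. At 4 h alone the effect was lower in GC than in naive B cells for 11 genes with both stimuli (4.2% of all genes), 4 with anti-CD40 (1.03%) and 9 with anti-IgM (3.75%), and higher for 1 gene with both and 0 with either alone (1 with anti-IgM and 0 with anti-CD40 at limma's unadjusted p under 0.05). With the block these 4 h counts were 24 lower and 1 higher for both, 14 and 0 for anti-CD40, and 26 and 2 for anti-IgM. At 2 h alone 0 of the 60 genes passed in limma for any of the 3 (0.985% of all genes lower for both, 0.186% for anti-CD40 and 0.524% for anti-IgM), with 4, 4 and 2 lower and 0 higher at an unadjusted p under 0.05, and with the block 4, 2 and 2 were lower.

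Srsf6 was called in naive B cells at both times. Its rise with both stimuli was 1.75 ± 0.12 at 4 h (limma adjusted p = 1.74e-09) and 0.97 ± 0.12 at 2 h (1.01e-05). Snrpd1 rose by 1.79 ± 0.23 at 4 h (3.67e-06), while its difference at 2 h was 0.33 ± 0.23 (0.359). Srsf2 likewise gave 1.77 ± 0.28 at 4 h (4.88e-05) and 0.61 ± 0.28 at 2 h (0.146, and 1.96e-05 with the block). The difference between times was not itself tested for these genes.

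Adding anti-IgM to anti-CD40 moved few of the genes. In GC B cells 1 rose (background 5.66% up, 3.65% down) and in naive B cells 2 rose and 1 fell (6.88% and 7.56%). With the block the counts were 6 and 1 in GC (13.6% and 12.6%) and 6 and 3 in naive B cells (16.3% and 17.9%). Srsf6 was 0.33 ± 0.09 higher in GC cells (limma adjusted p = 0.0183) and 0.40 ± 0.09 higher in naive cells (0.00245) with both than with anti-CD40 alone. The GC call was lost, leaving 0 called, without number 2 of anti-CD40 at 4 h or at 2 h, number 1 of both stimuli at 4 h, or number 2 of both stimuli at 2 h, and 2 genes were called without number 1 of anti-CD40 at 2 h. Hnrnpab rose by 0.48 ± 0.10 in naive B cells (0.00205) and Prpf6 fell by 0.40 ± 0.11 (0.0195), a call lost without number 1 of anti-CD40 at 4 h (0.111), or number 2 of both stimuli at 4 h (0.0879) or at 2 h (0.09).

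Promoter sequences are shown for genes that rose in naive B cells with both stimuli, picked by their values in these data. They are the U1 gene Snrpa, the Sm ring genes Snrpg and Snrpd2, whose effects differed between the cell types, and Srsf6. The last had the smallest adjusted p in naive B cells. In GC B cells with both stimuli Snrpa and Srsf6 rose, while Snrpg (-0.13) and Snrpd2 (0.02) were not called. The sequences are the 250 bases before the gene start, from RefSeq on GRCm38.p6, 5′ to 3′ on the gene's own strand. A second annotation, GENCODE M21, starts Snrpg at 86371304 and Snrpd2 at 19149722, within the stretches shown for them. Capitals mark the ETS core CGGAAG or its reverse CTTCCG, the E-box CACGTG, the full CRE TGACGTCA, and the CCAAT box or its reverse ATTGG.
Snrpa (chr7:27196272-27196521, minus strand): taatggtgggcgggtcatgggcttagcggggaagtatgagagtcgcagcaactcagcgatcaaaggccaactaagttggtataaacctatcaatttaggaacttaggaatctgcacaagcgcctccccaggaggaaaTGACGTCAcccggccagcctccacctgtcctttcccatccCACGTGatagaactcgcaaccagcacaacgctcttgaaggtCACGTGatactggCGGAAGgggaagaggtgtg
Snrpg (chr6:86371290-86371539, plus strand): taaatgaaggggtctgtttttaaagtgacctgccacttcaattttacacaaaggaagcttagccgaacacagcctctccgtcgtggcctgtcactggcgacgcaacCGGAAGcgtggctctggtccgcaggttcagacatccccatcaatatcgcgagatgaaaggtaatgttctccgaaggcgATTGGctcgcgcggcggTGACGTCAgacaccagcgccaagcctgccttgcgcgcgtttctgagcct
Snrpd2 (chr7:19149588-19149837, plus strand): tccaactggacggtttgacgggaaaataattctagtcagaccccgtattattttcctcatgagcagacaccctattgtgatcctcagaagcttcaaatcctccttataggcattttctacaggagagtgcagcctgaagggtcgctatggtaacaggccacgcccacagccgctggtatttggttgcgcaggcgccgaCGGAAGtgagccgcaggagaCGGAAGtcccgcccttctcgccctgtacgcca
Srsf6 (chr2:162931258-162931507, plus strand): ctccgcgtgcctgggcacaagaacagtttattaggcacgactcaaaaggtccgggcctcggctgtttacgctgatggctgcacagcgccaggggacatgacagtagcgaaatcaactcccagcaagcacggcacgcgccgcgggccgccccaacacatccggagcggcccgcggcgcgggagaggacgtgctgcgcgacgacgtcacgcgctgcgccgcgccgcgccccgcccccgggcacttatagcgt
Promoters were matched for 53 of the 60 genes, and motifs were counted on both strands from 250 bases before to 50 after each start. The ETS core was present in 29 of the 53 promoters (54.7%), beside 34.1% of the 8450 promoters matched to genes tested and 17.2% of all 27025 promoters. It was in 7 of 9 Snrp, 6 of 6 Sf3, 5 of 10 Srsf, 6 of 11 Prpf and 5 of 17 Hnrnp promoters. The E-box was in 8 of the 53 (15.1%; 10.8% of those of genes tested and 7.24% of all), and the full CRE in 2, Snrpa and Snrpg (3.77%; 3.42% and 1.88%). CCAAT or its reverse was in 27 (50.9%; 39.5% and 37.9%), 12 of the 17 Hnrnp promoters among them. Srsf6 held none of these motifs in the 250 bases shown. A match is a string of letters and says nothing about whether a factor binds there.

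Set A asked what IL-21 and anti-CD40 add to each other. Anti-CD40 added to IL-21 raised 16 and lowered 15 of the 60 genes in GC B cells (background 25.5% and 31.1%), and raised 27 and lowered 12 in naive B cells (26.6% and 28.6%). All differences in this paragraph and the next are means over 4 h and 2 h. Of the 11 Snrp genes 3 rose in GC cells and 10 in naive cells, with medians of 0.01 and 0.44, and none fell. Of the 18 hnRNP genes 2 rose and 10 fell in GC cells, the falls being 55.6% of the family, with a median of -0.19 beside -0.05 for all genes. In naive cells 3 rose and 6 fell, 33.3% of the family and near the background of 28.6%, with a median of -0.05 beside -0.01. Hnrnpul1 fell by 0.72 ± 0.07 in GC cells and by 0.47 in naive cells, Hnrnph2 (a G-run binder) by 0.37 in GC cells and 0.48 in naive cells, and Hnrnpm by 0.47 in GC cells and 0.37 in naive cells.

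Snrpd1 in set A stood, with IL-21 plus anti-CD40, at 8.17, 8.18 and 8.09 at 4 h and 7.70, 7.53 and 7.51 at 2 h in the GC libraries, against 7.62, 7.46 and 7.47 at 4 h and 7.52, 7.38 and 7.37 at 2 h with IL-21 alone. In naive B cells it stood at 8.11, 8.21 and 7.83 at 4 h and 7.79, 7.61 and 7.87 at 2 h with both, against 7.14, 7.15 and 6.94 at 4 h and 7.12 and 7.04 at 2 h with IL-21 alone. The naive groups were apart at both times, and the GC groups met at 2 h. Snrpd1 rose by 0.39 ± 0.07 in GC cells (limma adjusted p = 1.32e-05) and 0.82 ± 0.07 in naive cells (6.68e-11). Srsf7, an SR protein that also takes part in mRNA export, rose by 0.91 ± 0.08 in GC cells (8.78e-11) and 0.96 ± 0.09 in naive cells (1.4e-10). For Srsf7 at 2 h the lowest value with both was 9.02 in GC B cells, above 8.44, the highest with IL-21 alone. In naive B cells the lowest with both was 9.36, above 8.81 with IL-21 alone.

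The effect of adding anti-CD40 to IL-21 was lower in GC than in naive B cells for 14 of the 60 genes and higher for none (background 10% and 11.2%). Of these 10 were Snrp genes, with a family median of -0.38. The smallest adjusted p belonged to Prpf19, the ubiquitin ligase at the heart of the Prp19 complex, at -0.47 ± 0.07 (limma adjusted p = 1.1e-05). Prpf19 in naive B cells stood at 7.21, 7.30 and 7.03 at 4 h with both and 6.57, 6.48 and 6.47 with IL-21 alone. In GC B cells the same groups stood at 7.0, 7.003 and 6.92 with both and 6.77, 6.83 and 6.70 with IL-21 alone, and neither pair overlapped at 4 h. Snrpe followed at -0.47 ± 0.10 (0.000445) and Snrpd1 at -0.43 ± 0.10 (0.0019). No unstimulated cells enter this comparison. The calls of Snrpb, Hnrnpa2b1 and Snrpg were lost without any 1 of 18, 2 and 1 of the 34 libraries, with the adjusted p reaching 0.142, 0.0917 and 0.056.

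**Figure D3:**
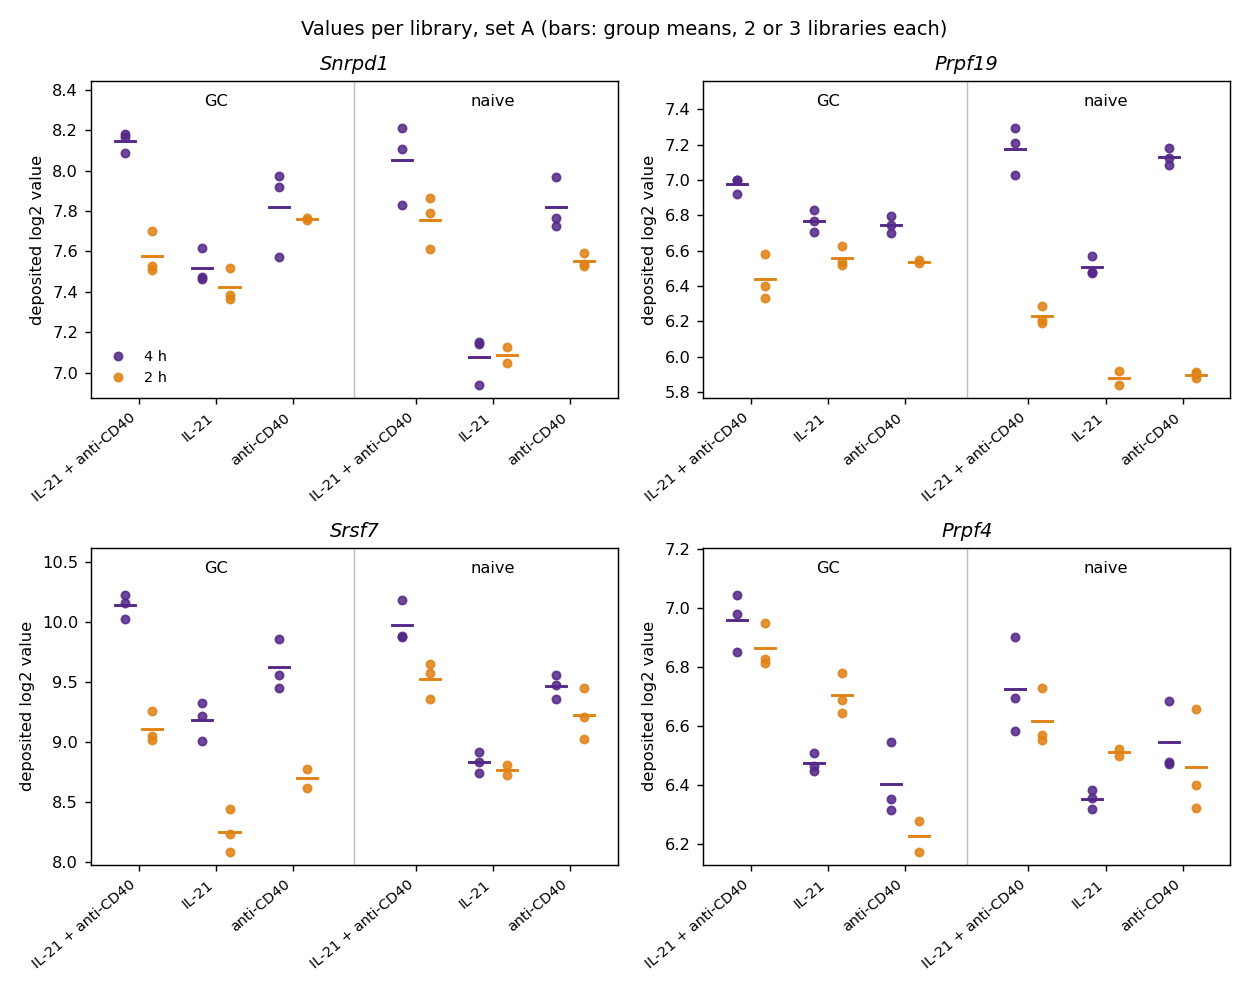
Deposited log2 values (y axis) of Snrpd1, Prpf19, Srsf7 and Prpf4 in every library of set A, by stimulus (x axis) and cell type (GC left, naive right), at 4 h (purple) and 2 h (orange); bars are means of 2 or 3 libraries. Snrpd1 with IL-21 alone lies lowest in naive B cells, at 6.94 to 7.15, and Prpf4 with anti-CD40 alone lies lowest in GC B cells, at 6.17 to 6.54.

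IL-21 added to anti-CD40 raised 12 and lowered 2 of the 60 genes in GC B cells (background 15.4% and 17.8%) and raised 11 and lowered 3 in naive B cells (10.6% and 13.7%). Prpf4, whose protein holds U4/U6 together with Prpf3, led in GC B cells. With IL-21 plus anti-CD40 it stood at 7.04, 6.98 and 6.85 at 4 h and 6.81, 6.83 and 6.95 at 2 h, against 6.54, 6.32 and 6.35 at 4 h and 6.28 and 6.17 at 2 h with anti-CD40 alone. Those GC groups did not overlap, whereas in naive B cells both conditions met, at 6.58 to 6.90 against 6.47 to 6.69 at 4 h. Prpf4 rose by 0.59 ± 0.07 in GC B cells (limma adjusted p = 1.62e-08), and its effect was 0.43 ± 0.09 higher in GC than in naive B cells (0.00254). Prpf4b, a kinase of the spliceosome, gave a difference of effects of 0.29 ± 0.07 (0.00598). These were the only 2 of the 60 genes called for that difference (background 3.12% higher and 2.65% lower), and 4 were called without replicate 3 of GC cells with anti-CD40 at 4 h. The 14 calls fell to 9 in GC cells without replicate 2 of anti-CD40 at 2 h, and to 9 in naive cells without replicate 1 of both at 4 h or at 2 h. Srsf7 rose in both cell types, by 0.46 and 0.41, as did Srsf10, an SR protein that can repress splicing, by 0.27 and 0.31, and Prpf39, the counterpart of a yeast U1 protein, by 0.40 and 0.29.

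Set directly against anti-CD40, IL-21 raised 13 and lowered 5 genes in GC B cells (22.9% and 20% of all genes) and raised 8 and lowered 25 in naive B cells (22.4% and 20.5%). Hnrnph2 was higher with IL-21 in both cell types, by 0.73 ± 0.07 in GC cells (limma adjusted p = 2.34e-10) and 0.67 ± 0.07 in naive cells (1.81e-09). Of the 11 Snrp genes 9 were lower with IL-21 in naive B cells, with a median of -0.30. Snrpd1 was lower by -0.32 in GC cells and -0.61 in naive cells, and Srsf7 by -0.44 and -0.55. Srsf2 was split within groups of set A and gives no firm value there: in GC B cells with IL-21 at 2 h it stood at 6.18, 6.17 and 8.41, and with anti-CD40 at 4 h at 6.06, 9.42 and 8.52.

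The level of the genes in GC against naive B cells was the third question. The highest value of a library was the same in all libraries that share a cell type and number in each of 4 such combinations of set B and in 3 of 6 of set A. Whether GC and naive libraries were scaled apart from each other is not given in the sources used here, so a difference in level between them is read with that limit. Without stimulus 19 of the 60 genes were higher and 7 lower in GC B cells (background 24.1% and 29.6%), and with the block 27 were higher and 18 lower, 45 in all (background 74.8% in either direction). The block is set within each cell type, so its error for a level leaves out the spread between numbers. Block counts for levels, here and below, therefore overstate how sure the difference between cell types is. With anti-CD40, 13 were higher and 18 lower in set B (24.8% and 29.6%; 20 in all without number 1 of GC cells at 2 h or of naive cells at 4 h) and 20 higher and 19 lower in set A (34.9% and 38.5%). The medians of the 60 genes were 0.15 without stimulus, and with anti-CD40 -0.08 in set B and -0.01 in set A. For all genes tested they were -0.07, -0.06 and -0.06. The unstimulated values changed with time. At 4 h alone 18 were higher and 2 lower in GC cells (background 15.7% and 19.3%), with a median of 0.30, and at 2 h alone 12 were higher and 8 lower (19.8% and 22.5%), with a median of -0.11. The Snrp median without stimulus was 0.78 at 4 h and -0.15 at 2 h. With anti-CD40 in set B, 5 were higher and 4 lower at 4 h (15.1% and 18.5%; median -0.06) and 8 higher and 16 lower at 2 h (20.3% and 22.4%; median -0.14). With the block, 28 were higher and 5 lower at 4 h and 19 higher and 16 lower at 2 h without stimulus, and 16 and 15 at 4 h and 17 and 24 at 2 h with anti-CD40. For these block counts at 1 time no share of all genes was computed.

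The sets share no library, so their anti-CD40 comparisons stand side by side. With anti-CD40, 23 of the 60 genes were called in both sets, 59% of the 39 called in set A and 74.2% of the 31 called in set B, and all 23 went the same way, 10 higher and 13 lower in GC B cells. Of all genes tested 24.8% were higher and 29.6% lower in set B, and 34.9% and 38.5% in set A. The overlap between sets was not computed for all genes tested, so it cannot be read as particular to these genes. Of the 18 hnRNP genes, 8 were higher and 3 lower in GC B cells in set B (background 24.8% and 29.6%) and 8 higher and 5 lower in set A (34.9% and 38.5%), and 6 of them were higher in both sets. Hnrnpl, which binds CA-rich sequence and regulates the exons of CD45, ran from 7.80 to 8.63 in GC and from 6.76 to 7.62 in naive libraries of set B, and from 6.99 to 8.02 in GC and 6.50 to 7.25 in naive libraries of set A. The groups were apart in set B and overlapped in set A. Its difference with anti-CD40 was 1.02 in set B and 0.64 in set A. Hnrnph3 was higher by 0.90 and 1.09, Hnrnpm by 0.62 and 0.67 and Hnrnpa2b1 by 0.66 and 1.00, set B before set A.

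Of the 13 Prpf genes 7 were lower and 1 was higher in GC B cells in set B, and the counts in set A were the same. Prpf40b, a counterpart of a yeast U1 protein, ran from -1.79 to 1.38 in GC and from 1.335 to 4.20 in naive libraries of set B, and from -2.15 to 1.43 in GC and 1.48 to 3.52 in naive libraries of set A. Its difference was -4.03 in set B and -2.93 in set A, and many of its GC values lie below the filter. Prpf39 was lower by -1.67 and -1.11, Prpf4b by -0.67 and -0.95, and Prpf6 by -0.65 in both sets. Srsf11, an SR-related protein, was lower by -0.77 and -0.55, Srsf5 by -0.39 and -0.37 and Srsf6 by -0.27 and -0.31. Srsf1 went the other way, higher in GC by 0.81 and 0.29. Sf3b3 was lower by -0.77 and -0.75, and Sf3a1, the largest SF3a subunit, was higher by 0.74 and 0.25. In set B the call of Srsf6 was lost without number 1 of naive cells at 4 h (limma adjusted p = 0.0568) or number 2 of them at 2 h (0.0515), and that of Srsf5 without number 1 of naive cells (0.0577) or number 2 of GC cells (0.0771) at 2 h. The Sf3a1 call there was lost without number 1 of GC cells at 2 h (0.0664), or number 1 of naive cells at 4 h (0.0552) or at 2 h (0.0952). That of Prpf39 was lost without number 1 of either cell type at either time (0.0808 to 0.0951), and that of Hnrnpa2b1 without any 1 of 11 of the 32 libraries (0.0506 to 0.222), number 2 of either cell type at either time among them.

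Some of these GC and naive differences rested on the replicate number in set B. Within unstimulated libraries, 16 of the 60 genes had a GC minus naive difference that moved by more than 1 between number 1 and number 2, and 40 of the 60 had the same sign in both. With anti-CD40 the counts were 17 and 37. Hnrnpul2 was the extreme, at 4.60 for number 1 and 0.36 for number 2, from GC values of 7.23 and 6.996 for number 1 and 5.15 and 4.60 for number 2 against naive values of 2.28 and 2.74 for number 1 and 4.4 and 4.64 for number 2 (4 h before 2 h). So the libraries of number 1 lay farther out in both cell types, GC upward and naive downward. Prpf8, the core scaffold of the spliceosome, gave 2.74 and -0.11 and stood at -0.48 in set A, and Hnrnpk, which binds C-rich sequence, gave -0.71 and 0.57. The 26 genes called without stimulus had the same sign in both numbers. A gene whose 2 numbers disagree in sign can hardly be called, so this agreement says nothing about the dependence on number. Effects of a stimulus moved by more than 1 between the numbers for 0 to 3 of the 60 genes in any comparison of set B. Such an effect is taken between libraries of 1 cell type and number, so an offset they share drops out. These effects are also mostly smaller than 1. The sign was the same in both numbers for 38 to 56 of the 60 genes, depending on the stimulus comparison. No counts by number were computed for all genes tested.

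**Figure D4:**
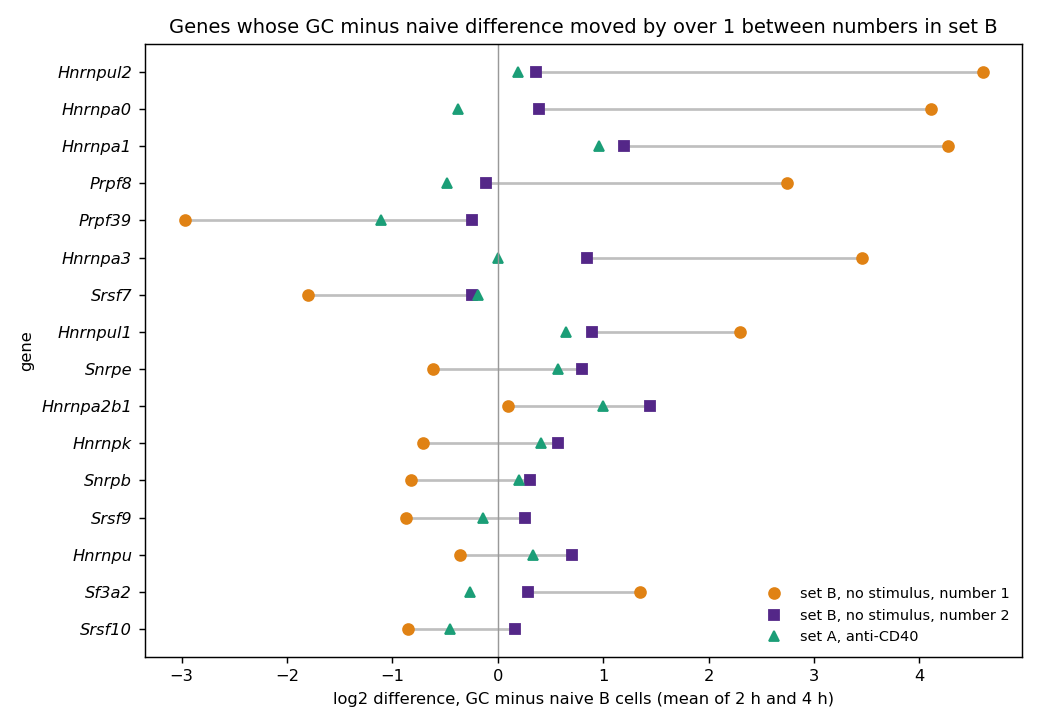
GC minus naive log2 difference (x axis, mean of 4 h and 2 h) of the 16 genes (y axis) that moved by more than 1 between number 1 (orange circles) and number 2 (purple squares) of the unstimulated libraries of set B, with the anti-CD40 difference of set A beside them (green triangles). For Hnrnpul2 and Hnrnpa0 number 1 lies above 4 and number 2 below 1, and for Prpf39 number 1 lies at -2.97.

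A few of the genes differed between 4 h and 2 h alike in every cell type and set, as a mean over the conditions of each set. Those conditions include stimuli, so time in culture and time with a stimulus are mixed in this mean. In set B, 10 rose and 2 fell at 4 h against 2 h in GC B cells (background 11% and 11.1%) and 8 rose and 9 fell in naive B cells (22.1% and 20.3%). With the block those counts were 22 and 4 (23.7% and 22.9%) and 20 and 17 (33.6% and 31.3%). In set A 31 rose and 7 fell in GC (32.4% and 31.7%) and 31 rose and 12 fell in naive B cells (35.3% and 33.8%). Srsf1 was higher at 4 h in all 4, by 0.62 and 0.60 in GC and naive B cells of set B and by 1.05 and 0.86 in those of set A. Srsf5 was lower in all 4, by -0.34 and -0.61 in set B and -0.46 and -0.53 in set A, and so was Hnrnph3, by -0.60 and -0.72 and by -0.31 and -0.36. Without stimulus in set B, GC and naive cells gave 0.46 and 0.11 for Srsf1 and -0.17 and -0.45 for Srsf5. Hnrnph3 gave -0.0 and -0.58 there. These are differences of 2-library means with no test. Prpf6 was higher at 4 h in GC B cells, by 0.37 in set B and 0.53 in set A, and lower in naive B cells, by -0.20 in set B and -0.42 in set A. In naive B cells of set B without stimulus, however, Prpf6 stood 0.2 higher at 4 h, read without a test. The naive Prpf6 call in set B, as a mean over conditions, was lost without any 1 of 21 of the 32 libraries (limma adjusted p = 0.0511 to 0.13). The difference between the cell types in this time effect was not tested.

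Genes of the pathway outside the 60 were read as lists. The 16 genes of snRNP assembly, which load the Sm ring onto snRNA, gave 6 rises in GC cells and 7 in naive cells with both stimuli, 6 and 7 with anti-CD40, and 0 and 7 with anti-IgM, with no fall. Smn1, the survival motor neuron protein of the assembly complex, rose by 1.06 ± 0.09 in naive B cells with both stimuli, where GC B cells gave 0.20 ± 0.09 (limma adjusted p = 0.116, and 0.041 with the block). Coil, which encodes the Cajal body protein coilin, rose by 1.35 ± 0.13 in naive B cells, beside 0.07 ± 0.13 in GC B cells (0.763). The effect of both stimuli was lower in GC than in naive B cells by -1.28 ± 0.18 for Coil (7.46e-05) and -0.86 ± 0.13 for Smn1 (0.000121). Wdr77, a partner of the Sm methylase Prmt5, rose in GC B cells, by 1.28 ± 0.19 with both stimuli (4.04e-05) and 1.00 with anti-CD40. Median differences of the list with both stimuli were 0.26 in GC cells and 0.57 in naive cells.

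Of the 10 kinases and phosphatases that act on SR proteins, none rose in naive B cells, and 5 fell with both stimuli (background 21.6%), 5 with anti-CD40 (14.8%) and 4 with anti-IgM (15.2%), while GC B cells gave 1 rise, with anti-IgM, and no fall. The GC rise was Srpk2, an SR protein kinase, by 0.80 ± 0.18 with anti-IgM (limma adjusted p = 0.00556). Clk1, a kinase of SR proteins in the nucleus that was picked after its values were seen, fell by 1.80 ± 0.26 in naive B cells with both stimuli (1.39e-05), beside -0.61 ± 0.26 in GC B cells (0.0947, and 0.0326 with the block). Of 9 measured Lsm ring genes 1 rose in GC cells and 2 in naive cells with both stimuli, and none fell. Of 16 exon junction and nonsense-mediated decay genes 1 rose in GC cells and 5 rose and 1 fell in naive cells. Of 25 genes of the Prp19 complex and spliceosomal helicases 3 rose in GC cells and 6 rose and 1 fell in naive cells, and of 30 other splicing regulators 3 rose in GC cells and 6 rose and 2 fell in naive cells. For these lists the background is the share of all genes given for the 60 genes under the same stimulus.

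Counting limits apply to some of the genes. By sequence, 19 of the 60 have at least 1 pseudogene that matches 95% or more over 200 or more bases, with 27 for Hnrnpa3 and 9 for Hnrnpa1, and 20 share 100 or more bases of exon with another gene. The second group holds Hnrnpab, Hnrnpd, Hnrnpf, Hnrnph3, Hnrnpk, Hnrnpm, Hnrnpr, Hnrnpu, Hnrnpul2, Prpf31, Prpf39, Sf3a2, Sf3b2, Sf3b3, Snrpa, Snrpa1, Snrpd3, Snrpf, Srsf2 and Srsf4. Whether the counting used strand is not given in the sources used here, so their values may include reads of the partner.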

How the data were processed

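RNA-seq of 66 libraries of GC and naive B cells was used. Per the submitters' processing notes reads were handled with STAR 2.6.1a and featureCounts (Subread 2.0.1) on build mm10, along with Trim Galore 0.6.5, FastQC 0.11.7 and limma; their order and settings are not given in the sources used here. The authors deposited log2 values for 23420 symbols per library. Back-transformed, a library sums to between 926830 and 1065945, and the offset and the scaling between libraries are not stated. Library medians over the genes tested lay within 4.628 to 4.646 in set A, and within 4.793 to 4.84 for the libraries of set B. Libraries scaled to like distributions tend to give like numbers of rises and falls. Depth is unknown, so no counting interval is given.

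Genes above a log2 value of 1 in at least 4 libraries were tested (11264). Each set was fitted alone with limma 3.58.1 in R 4.3.3 on its groups of cell type, stimulus and time (12 in set A, 16 in set B), with trended and robust moderation (statmod 1.5.0), which left 22 and 16 residual degrees of freedom. Effects at 4 h and 2 h were averaged within the fit. Two-sided p-values were adjusted across the 11264 genes by the Benjamini-Hochberg method and called under 0.05. There were 26 comparisons. The fit was tested on simulated data with independent noise in each library. Libraries of set B that share a number deviate together, so the simulation cannot show how the fit performs on such data.

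Replicate numbers pair the libraries of set B, where 56 of 56 same-number pairs of GC libraries (0.53 to 0.73) and 56 of 56 of naive libraries (0.59 to 0.73) correlated above 0.1 in their deviations from the group mean. The numbers come from the file headers, and anti-CD40 titles 4 and 5 of set B are numbers 1 and 2 there. A block for the number was an alternative to the fit. The other alternatives were median centring, a pseudocount of 1, no filter, a filter at log2 above 3, moderation with neither trend nor robustness, a joint fit of both sets, and each library left out. None of these other alternatives had the block. Values by number and each time alone were added after the data were seen.

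Members and lists were chosen with earlier results of these data known. Named genes are, per comparison, up to 3 called members of a family and direction with the smallest adjusted p, members of known role, and up to 3 called genes of the pathway lists; Clk1 and the genes that moved most between numbers were picked after their values were seen. Near-identical copies were searched with BLAST 2.17.0. Promoter sequences are RefSeq's on GRCm38.p6.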

Additional observations from a re-analysis of the deposited data

Results flagged for a closer look

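The effect of a stimulus differed between GC and naive B cells, by the direct limma test of the difference of effects, for the genes that follow. Each value is the effect in GC cells minus the effect in naive cells, on the log2 scale, as a mean over 4 h and 2 h. With anti-IgM plus anti-CD40 against no stimulus the differences were -0.96 for Snrpd1, -0.91 for Snrpf, -0.79 for Snrpd2, -0.72 for Srsf6, -0.69 for Snrpg, -0.62 for Hnrnpab, -0.6 for Snrpc and -0.53 for Snrpa. With anti-CD40 against no stimulus they were -0.64 for Srsf6 and -0.64 for Snrpa. With anti-IgM against no stimulus they were -0.95 for Srsf6, -0.91 for Snrpd1, -0.84 for Snrpf, -0.82 for Snrpd2, -0.76 for Snrpg, -0.68 for Snrpa, -0.66 for Hnrnpab and -0.61 for Snrpc.

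In set A, IL-21 added to anti-CD40 gave differences of 0.43 for Prpf4 and 0.29 for Prpf4b. Anti-CD40 added to IL-21 gave -0.47 for Prpf19 and, among Snrp genes, -0.47 for Snrpe, -0.45 for Snrpf, -0.43 for Snrpd1, -0.4 for Snrpb2, -0.38 for Snrpc, -0.38 for Snrpg, -0.31 for Snrpa1, -0.28 for Snrpa, -0.26 for Snrpd3 and -0.22 for Snrpb. The other called genes of that comparison were Srsf1 at -0.39, Hnrnpa2b1 at -0.33 and Hnrnpc at -0.27.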

How the results depend on the processing

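Values are counts of the 60 genes called. Outside the fits at 1 time alone, no called gene value changed sign. At 1 time alone 5 of 147 called values of set B took the other sign without being called there: Srsf1 (-0.1) and Snrpd3 (-0.03) at 2 h in naive cells with both stimuli, Snrpd1 at 2 h (-0.15) and Snrpd3 at 4 h (0.16) in GC against naive without stimulus, and Prpf38b at 4 h (0.05) in GC against naive with anti-CD40. Median centring, a pseudocount of 1, the stricter filter and limma without trend or robust moderation kept all 26 counts within 1.5 times. With the replicate block, called genes in GC and naive cells were 11 and 36 for anti-CD40, 4 and 36 for anti-IgM, 17 and 41 for both, 7 and 9 for anti-IgM added to anti-CD40, and 26 and 37 for 4 h against 2 h in set B. It gave 45 for GC against naive without stimulus, where its error leaves out the spread between numbers. For the difference of effects it gave 15 for anti-CD40, 19 for anti-IgM and 19 for both. In set A only 4 of 40 GC and 5 of 40 naive pairs correlated above 0.1, so the numbers pair nothing there, and the block kept each count within 1.5 times. The joint fit of both sets gave GC counts of 2 for anti-CD40, 3 for anti-IgM (26 in naive cells) and 4 for anti-IgM added to anti-CD40. It gave 5 in GC and 0 in naive cells for IL-21 added to anti-CD40, 18 in GC for anti-CD40 added to IL-21, 7 in GC and 13 in naive cells for IL-21 against anti-CD40, and 29 for 4 h against 2 h in naive cells of set B. For the difference of effects it gave 8 for anti-CD40, 13 for both, 1 for IL-21 added and 2 for anti-CD40 added to IL-21. Without a filter, the difference of effects gave 4 for anti-IgM and 5 for both, and IL-21 added to anti-CD40 gave 9 in naive cells. At 2 h alone, GC and naive counts were 0 and 2 for anti-CD40, 0 and 3 for anti-IgM, 2 and 6 for both and 2 and 0 for anti-IgM added, and the difference of effects gave 0 for anti-CD40, 0 for anti-IgM and 0 for both. At 4 h alone, GC counts were 0 for anti-IgM and 0 for anti-IgM added, with 4 for the difference of effects of anti-CD40 and 9 for GC against naive with anti-CD40 in set B. Leaving out 1 library gave GC counts of 0 to 1 for anti-CD40, 0 to 1 for anti-IgM, 4 to 9 for both and 0 to 2 for anti-IgM added. It gave 20 to 31 for GC against naive with anti-CD40 in set B, 9 to 15 for IL-21 added in GC and 9 to 15 in naive cells, and differences of effects of 4 to 8 for anti-IgM, 4 to 8 for both and 2 to 4 for IL-21 added. Beyond fewer genes, samples or times where the alternative has them, the cause was not tested.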
